A study of Mus musculus with 6 samples.

Results

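The nuclear receptors of the mouse liver and the coregulators that they recruit were examined as a group of 38 genes among the 24421 genes of the deposited table. The members were chosen by symbol, as receptors other than the REV-ERB and ROR families together with coactivators and corepressors, and comprise 30 receptors and 8 coregulators. All 38 symbols were present in the table. Hepatic mRNA had been sequenced from 3 wild-type (WT) mice and from 3 heterozygous mice, which carry a single working allele of the targeted gene in every tissue. The sample labels give the strain of all mice as C57BL/6 (C57BL/6 J in the study) and the age as 21 weeks. The study states a slightly younger age, and all mice had free access to standard chow. The study describes them as males, whereas the labels name the sex of the WT mice alone, and the WT mice were littermates of the heterozygotes.

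The value used for each gene was the authors' mean of the normalized counts over all 6 libraries, so it averages both genotypes. The deposited counts per animal stand in 6 columns headed by numbers that match no sample label, and these columns were not used. Differences between WT and heterozygous livers, values per mouse and the spread between mice are therefore not given, and what follows describes the level of each member in this set of livers. The genotype of each library was not checked against the targeted gene. Where genes were compared with each other, the mean was divided by the summed length of the gene's exons in kilobases (kb), and the resulting level is a normalized count per kb. Because no spread between mice was available, neighbouring genes in the order of levels were not shown to differ.

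Nuclear receptors are transcription factors that bind DNA through a zinc finger domain, and most of them change their activity when a small lipid-soluble ligand is bound. Receptors for fatty acids, oxysterols, bile acids, xenobiotics, retinoic acid, thyroid hormone and vitamin D bind DNA as a heterodimer with a retinoid X receptor. Corepressors hold target genes silent in the absence of an activating ligand, and coactivators join the receptor when the ligand is present. In liver these receptors set the rates of lipid oxidation, lipogenesis, bile acid synthesis and drug clearance.

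The liver label was checked against cell type markers. The authors' mean normalized counts summed to 30045982, and all 5 hepatocyte markers lay between 56732 (*Tat*) and 2155546 (*Alb*). The markers of Kupffer cells summed to 5346, those of stellate cells to 6610 and those of liver endothelial cells to 3862, with all 5 genes of each list above the authors' minimum. Cholangiocyte markers summed to 1607 and lymphocyte markers to 102, while 2 of 4 muscle and pancreas markers were above the minimum. These were the pancreas genes *Cela1* (242) and *Prss2* (15.4), whereas the muscle genes *Acta1* (3.24) and *Ckm* (0.69) were below it. Whole liver was sequenced, so fewer cells of a type and less RNA per cell cannot be told apart for any level given here.

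All 38 members had a mean normalized count above 10, the value above which the authors marked a gene as within range, against 53.1% of all genes in the table. The members together made up 0.314% of all normalized counts. Levels per kb spanned a 1708-fold range, from 5048 for *Hnf4a* to 2.95 for *Vdr*. A total of 23 members lay above the median of the genes within range, which was 94.6 per kb. The highest 10% of the genes within range began at 906 per kb and held 8 members, all of them receptors: *Hnf4a*, *Rxra*, *Ppara*, *Nr1h4*, *Nr1i3*, *Nr1i2*, *Nr0b2* and *Nr1h3*. With the length of the longest transcript, *Nr1i2* (percentile 89.2), *Nr0b2* (88.2) and *Nr1h3* (89.9) fell outside the highest 10%. Without a length they also fell outside it (percentiles 88.4, 72.5 and 86.3), and the coregulator *Ncor1* entered it at percentile 90.2. The 5 members with the highest counts took 66.6% of all counts of the members. These shares describe a list of genes chosen with their liver expression known, and were not tested.

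**Figure D1:**
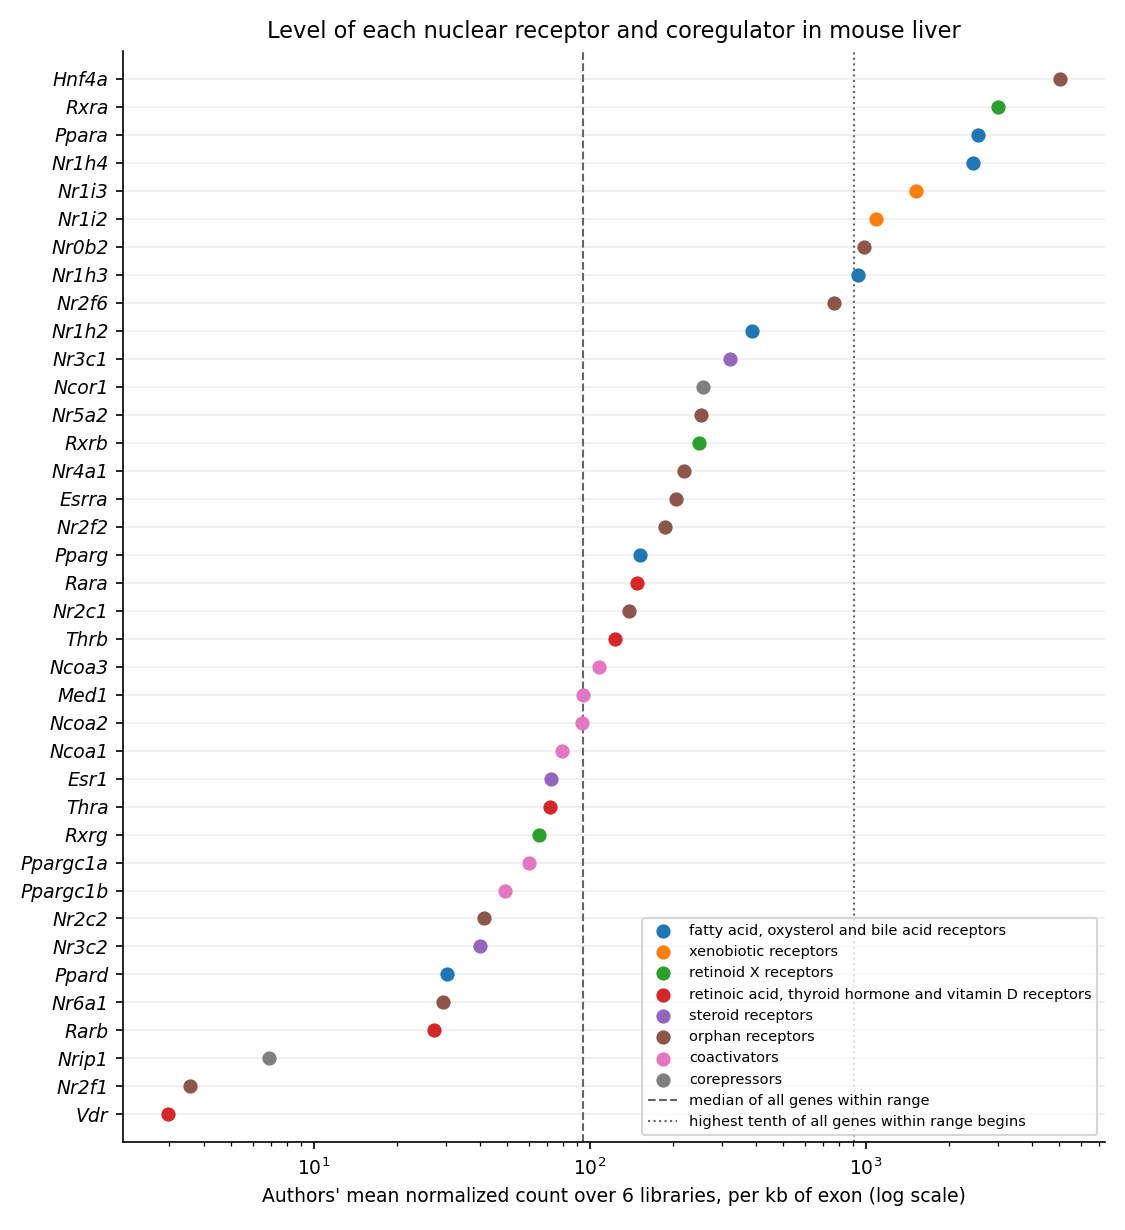
The authors' mean normalized count over the 6 libraries per kb of exon, on a log axis, is plotted for each of the 38 members, coloured by role, with the median (94.6, dashed) and the start of the highest 10% (906, dotted) of all genes within range. *Hnf4a* (5048), *Rxra* (3014), *Ppara* (2543) and *Nr1h4* (2447) stand highest, and *Nrip1* (6.91), *Nr2f1* (3.57) and *Vdr* (2.95) stand apart at the bottom; no error is drawn because values per mouse were not used.

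The promoters of 6 of the highest 9 members are shown because they fall into distinct kinds of sequence. RefSeq promoter windows on GRCm38.p6 were found for 33 members, and the 250 bases before each annotated start were read 5′ to 3′ on the strand of the gene. Capitals mark each CG dinucleotide, the site of DNA methylation in mammals. The 6 sequences were chosen after their values had been seen, from members with a single window.
*Nr1i3* (chr1:171213720-171213969, plus strand): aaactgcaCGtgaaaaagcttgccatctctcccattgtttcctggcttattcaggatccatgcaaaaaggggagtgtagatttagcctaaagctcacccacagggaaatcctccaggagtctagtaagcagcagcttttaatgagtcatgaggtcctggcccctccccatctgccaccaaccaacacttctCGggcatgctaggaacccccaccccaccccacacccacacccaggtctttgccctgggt
*Nr1i2* (chr16:38294825-38295074, minus strand): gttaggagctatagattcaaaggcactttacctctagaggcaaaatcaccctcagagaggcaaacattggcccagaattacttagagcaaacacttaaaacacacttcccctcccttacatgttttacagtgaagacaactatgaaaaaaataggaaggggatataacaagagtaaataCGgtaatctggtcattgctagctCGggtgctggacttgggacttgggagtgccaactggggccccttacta
*Nr0b2* (chr4:133553126-133553375, plus strand): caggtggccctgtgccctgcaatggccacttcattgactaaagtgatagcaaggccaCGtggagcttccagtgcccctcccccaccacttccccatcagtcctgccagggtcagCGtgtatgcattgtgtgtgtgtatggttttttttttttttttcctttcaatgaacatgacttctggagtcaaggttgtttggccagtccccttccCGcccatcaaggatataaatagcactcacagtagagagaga
*Nr1h4* (chr10:89506659-89506908, minus strand): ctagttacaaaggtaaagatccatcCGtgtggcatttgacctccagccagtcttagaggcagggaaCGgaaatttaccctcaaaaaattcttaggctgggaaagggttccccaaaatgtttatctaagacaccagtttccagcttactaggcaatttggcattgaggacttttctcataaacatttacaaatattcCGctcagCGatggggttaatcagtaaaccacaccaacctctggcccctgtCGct
*Ppara* (chr15:85735526-85735775, plus strand): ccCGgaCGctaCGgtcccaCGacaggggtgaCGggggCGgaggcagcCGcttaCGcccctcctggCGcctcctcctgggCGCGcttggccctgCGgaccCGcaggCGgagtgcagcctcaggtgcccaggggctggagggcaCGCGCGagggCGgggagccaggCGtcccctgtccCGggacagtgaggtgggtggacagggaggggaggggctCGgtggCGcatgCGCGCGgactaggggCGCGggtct
*Nr2f6* (chr8:71381953-71382202, minus strand): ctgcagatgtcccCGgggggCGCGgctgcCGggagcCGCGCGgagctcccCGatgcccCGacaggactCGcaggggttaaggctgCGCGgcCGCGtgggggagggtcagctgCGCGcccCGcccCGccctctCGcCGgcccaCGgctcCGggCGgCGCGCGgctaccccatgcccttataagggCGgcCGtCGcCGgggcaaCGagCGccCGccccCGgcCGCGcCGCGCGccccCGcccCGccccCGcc

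The window of *Nr1i3* held 2 CG dinucleotides, that of *Nr1i2* 2, that of *Nr0b2* 3 and that of *Nr1h4* 5, whereas the window of *Ppara* held 27 and that of *Nr2f6* 42. Over 32851 windows of all genes the median was 6, and 0.865% of them held as many as the window of *Nr2f6*. The windows of *Nr1h4* and *Ppara* lie wholly within the annotated genes, at internal starts, since *Nr1h4* spans chr10:89454234-89533585 on the minus strand and *Ppara* spans chr15:85734983-85802819 on the plus strand. The *Nr2f6* window overlaps its gene by 8 bases, and the other 3 overlap theirs by 0. Of the 8 members in the highest 10%, 6 had no window with more than 8 CG dinucleotides, as was the case for 6 of the other 25 members with a window and for 57.2% of all genes. The threshold of 8 was set after the counts had been seen, and this contrast was not tested. The exceptions were *Ppara* and *Rxra*, whose 2 windows held 40 and 1. Of the 6, *Nr1i2*, *Nr0b2* and *Nr1h3* were outside the highest 10% with the longest transcript and without a length. The contrast with the other members therefore depends on the measure of length. *Hnf4a* had 2 windows, with 3 and 4 CG dinucleotides. At the low end of the levels the windows were as varied, with 11 for *Vdr*, 2 and 22 for *Nr2f1*, and 32 and 4 for *Nrip1*.

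**Figure D2:**
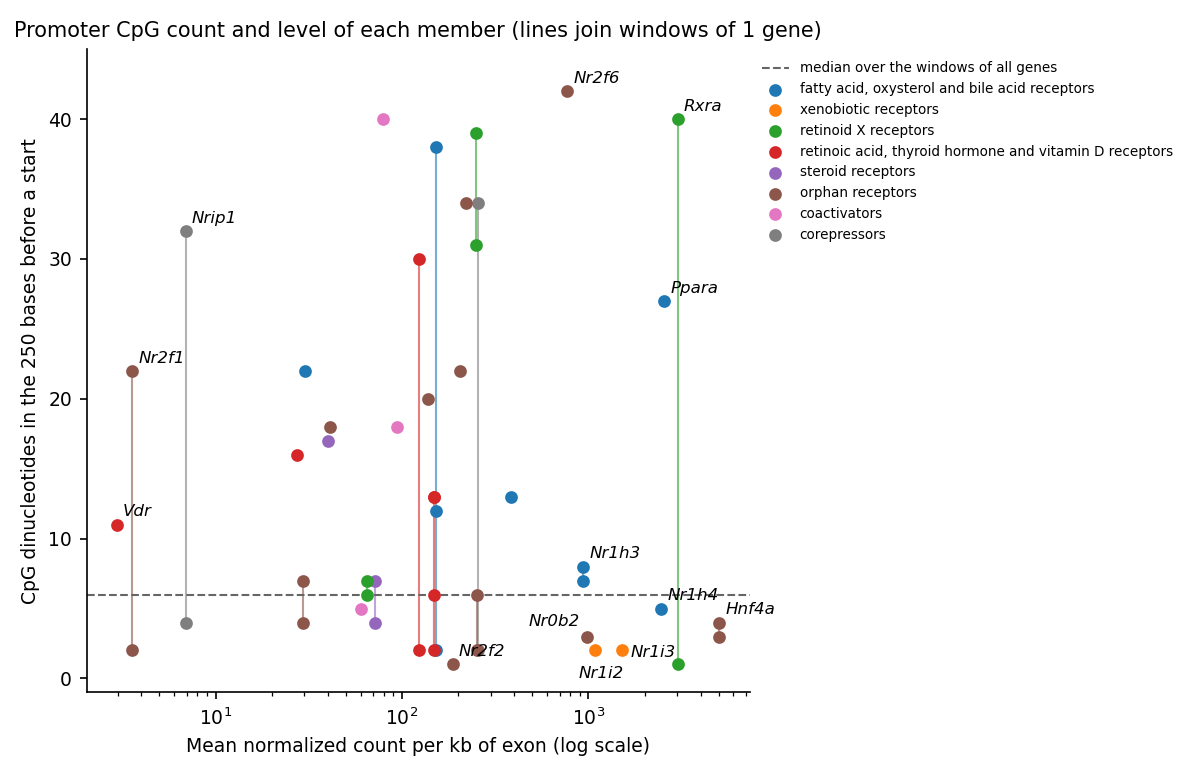
The number of CG dinucleotides in the 250 bases before each annotated start is plotted against the level of the member per kb of exon (log axis), with lines joining several windows of the same gene and the median over the windows of all genes (6) dashed. *Nr1i3* (2), *Nr1i2* (2), *Nr0b2* (3), *Hnf4a* (3 and 4) and *Nr1h4* (5) lie at the lower right, while *Ppara* (27), *Nr2f6* (42) and a window of *Rxra* (40) lie at the upper right.

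The sequence AGGTCA is the core motif to which most receptors of this family bind. It was searched on both strands of the same windows and was present in those of 7 of the 33 members (21.2%), against 15.8% of all genes. By window the shares were 8 of 50 (16.0%) against 14.0% of 32851 windows. These members were *Rxra*, *Nr1h4*, *Nr5a2*, *Pparg*, *Thrb*, *Rxrg* and *Nr6a1*. A direct repeat of the motif with a single base between the copies, the form preferred by PPAR and HNF4A dimers, was found in 0 of the 50 member windows and in 0.0335% of all windows. A match is a description of the letters in these windows and not evidence of binding.

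The receptors for fatty acids, oxysterols and bile acids had a median level of 662 per kb, above that of the genes within range. *Ppara*, which drives fatty acid oxidation, was the highest of them, with an authors' mean normalized count of 9756 and a level of 2543 per kb. It made up 93.3% of the summed level of the PPAR genes. *Pparg*, the adipogenic member, reached 152 per kb, and *Ppard*, which is expressed in many tissues, 30.3 per kb. *Ppara* was thus 16.7-fold above *Pparg* and 84.0-fold above *Ppard*. These folds were 13.5 and 46.8 with the length of the longest transcript, and 21.8 and 42.9 without a length. *Nr1h4*, the bile acid receptor FXR, had a level of 2447 per kb, and *Ppara* exceeded it by 1.04-fold. The oxysterol receptor *Nr1h3* (LXRα), which activates lipogenesis and cholesterol export, had a level of 939 per kb. It was 2.44-fold above its paralog *Nr1h2* (LXRβ) at 386 per kb.

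Both xenobiotic receptors, which induce drug-metabolizing enzymes, were in the highest 10% by level per kb of summed exons. *Nr1i2* was at percentile 91.4 by that measure, at 89.2 with the longest transcript and at 88.4 without a length. *Nr1i3* (CAR) had a mean normalized count of 6692 and a level of 1516 per kb, and *Nr1i2* (PXR) had a count of 2771 and a level of 1085 per kb. The level of *Nr1i3* carries a limit, because 3304 of its 4414 exonic bases are shared with *Tomm40l* on the opposite strand. *Tomm40l* itself had a mean normalized count of 208, and the sources used here do not state whether reads were counted by strand.

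*Rxra*, the common dimerization partner of these receptors, was the second highest member, with a mean normalized count of 16464 and a level of 3014 per kb. It accounted for 90.6% of the summed level of the retinoid X receptors. *Rxrb* reached 249 per kb and *Rxrg* 65.2 per kb, so *Rxra* was 12.1-fold and 46.2-fold higher. The retinoid X receptors summed to 3328 per kb and their 13 partners among the members to 9473 per kb, a 2.85-fold excess of partner mRNA. The 4 highest partners, *Ppara*, *Nr1h4*, *Nr1i3* and *Nr1i2*, made up 80.1% of the partner sum. These are ratios of mRNA, and protein was not measured in these libraries.

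The receptors for retinoic acid, thyroid hormone and vitamin D were lower, with a median of 71.9 per kb and 0 of 5 genes in the highest 10%. *Rara*, the highest of them, had a level of 148 per kb and was 5.43-fold above *Rarb* at 27.3 per kb. *Rarb* shares 1793 of its 5265 exonic bases with *Top2b* on the opposite strand, whose mean normalized count of 1654 exceeded the 144 of *Rarb*. *Thrb*, the main thyroid hormone receptor of liver, had a level of 124 per kb, which was 1.72-fold above that of *Thra* at 71.9 per kb. *Thra* shares 263 exonic bases with *Nr1d1*, the REV-ERBα gene on the opposite strand, whose count of 2173 exceeded the 332 of *Thra*. With the length of the longest transcript in place of the summed exons, *Thrb* was 1.09-fold above *Thra*. *Vdr*, the vitamin D receptor, was the lowest of all members, with a mean normalized count of 16.7.

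Among the steroid receptors, *Nr3c1*, the glucocorticoid receptor, was the highest, with a mean normalized count of 2476 and a level of 322 per kb. It was 8.08-fold above *Nr3c2*, the mineralocorticoid receptor, at 39.9 per kb. *Esr1*, the estrogen receptor of liver, had a level of 72.1 per kb. The longest transcript of *Esr1* (6339 bases) is shorter than its summed exons (13661 bases). Its percentile among the genes within range was 44.0 with the summed exons, 54.6 with the longest transcript and 69.5 without a length.

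The 11 orphan receptors spanned nearly the whole range. *Hnf4a*, which maintains the hepatocyte programme and binds DNA as a homodimer, was the highest member, with a mean normalized count of 24369.6 and a level of 5048 per kb. It alone took 25.8% of the counts of all members. *Nr0b2* (SHP), which lacks a DNA-binding domain and represses other receptors, is a short gene of 1132 exonic bases. Its mean normalized count was 1115 and its level 985 per kb, so it stood at percentile 90.6 per kb and at percentile 72.5 by count. *Nr5a2* (LRH-1), an activator of bile acid synthesis genes, had a level of 252 per kb. *Nr4a1*, an immediate early gene, reached 219.7 per kb, and *Esrra*, a regulator of mitochondrial genes, 205 per kb. The testicular receptors *Nr2c1* and *Nr2c2* had levels of 138 and 41.3 per kb, although their mean normalized counts of 637 and 617 were within 1.03-fold of each other. *Nr2c2* shares 4590 of its 14935 exonic bases with *Mrps25* on the opposite strand. *Nr6a1*, the germ cell nuclear factor, had a level of 29.3 per kb.

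The COUP-TF genes, orphan receptors that often repress transcription, differed most within a family. *Nr2f6* (EAR2) had a level of 768 per kb, *Nr2f2* (COUP-TFII) of 187 per kb and *Nr2f1* (COUP-TFI) of 3.57 per kb. *Nr2f6* was 4.11-fold above *Nr2f2* and 215-fold above *Nr2f1*. *Nr2f6* shares 1622 of its 2983 exonic bases with *Ocel1* on the opposite strand, which had a mean normalized count of 178 against 2291 for *Nr2f6*.

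**Figure D3:**
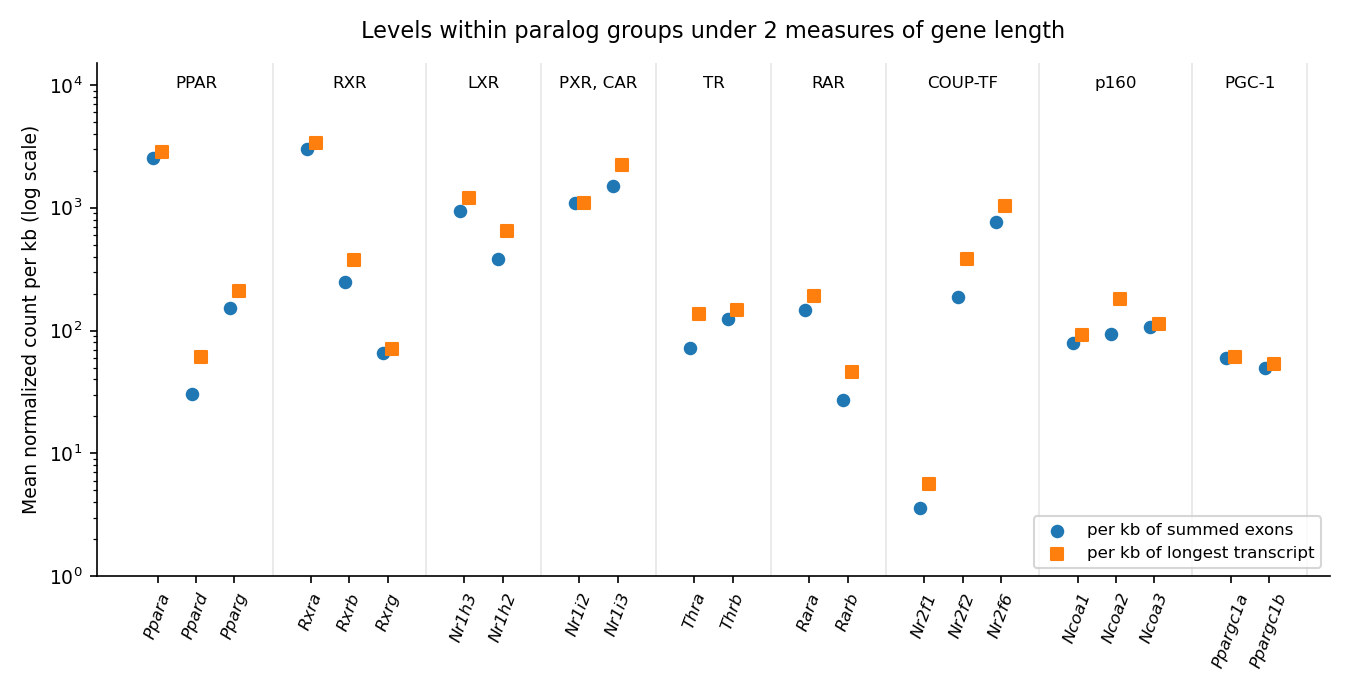
Levels within 9 paralog groups are plotted on a log axis as the authors' mean normalized count per kb of summed exons (circles) and per kb of the longest transcript (squares). In the PPAR, RXR and COUP-TF groups the highest gene lies well above the lowest by both measures. The folds are 84.0, 46.2 and 215 by summed exons, and 46.8, 47.3 and 182 by the longest transcript. *Ncoa1*, *Ncoa2* and *Ncoa3* lie within 1.36-fold by summed exons and 1.94-fold by the longest transcript, by which *Ncoa2* moves above *Ncoa3*.

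None of the 8 coregulators was in the highest 10% by level per kb, and their median was 86.4 per kb against 196 per kb for the 30 receptors. Without a length the medians lay closer, at mean normalized counts of 753 and 950, and *Ncor1* was in the highest 10% at percentile 90.2. The p160 coactivators, which bring histone acetyltransferases to the bound receptor, were *Ncoa3* at 108 per kb, *Ncoa2* at 93.7 per kb and *Ncoa1* at 79.1 per kb, a range of 1.36-fold. The order of *Ncoa3* and *Ncoa2* was reversed by the longest transcript and without a length. By these measures the range was 1.94-fold and 2.16-fold, with *Ncoa2* highest and *Ncoa1* lowest. *Ncoa2* has 15642 summed exonic bases and a longest transcript of 8171. *Med1*, the Mediator subunit that contacts receptors, had a level of 94.6 per kb. *Ppargc1a*, an inducible coactivator of gluconeogenic and mitochondrial genes, reached 60.1 per kb, and its paralog *Ppargc1b* 49.3 per kb. Of the corepressors, *Ncor1*, the scaffold that binds the deacetylase HDAC3, was the highest coregulator, at 257 per kb. *Nrip1* (RIP140), which binds receptors in the presence of ligand, had a level of 6.91 per kb, which was 3.95-fold below *Rarb*, its neighbour in the order of levels and the widest step between any neighbours.

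**Figure D4:**
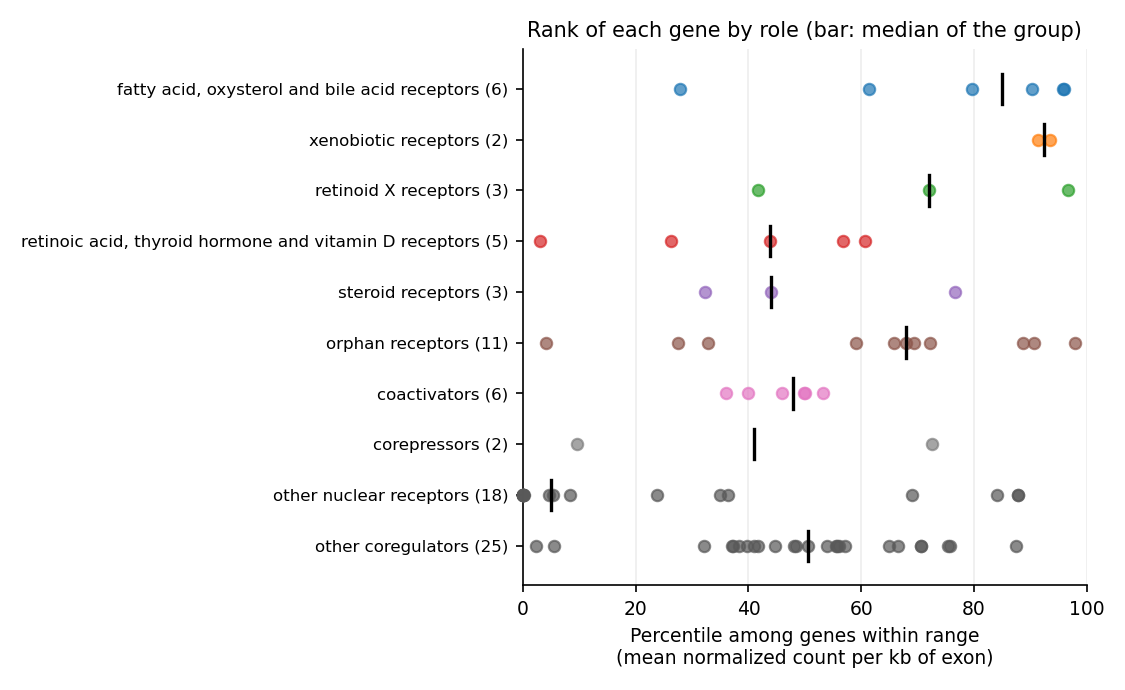
Each point gives the percentile of a gene among the genes within range, by mean normalized count per kb of exon, with the genes arranged by role, the number of genes in parentheses and a bar at the median of each group. The 2 xenobiotic receptors lie above percentile 90 (median 92.4), the coactivators lie near the middle (median 47.9) and the other nuclear receptors lie mostly at the low end (10 of 18 above the authors' minimum).

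The 18 nuclear receptors outside the group were lower as a list. Of these, 10 were above the authors' minimum, 5 were listed at 0 (*Nr0b1*, *Nr2e1*, *Nr2e3*, *Nr5a1* and *Rorb*), and the median level was 4.05 per kb against 196 per kb for the 30 member receptors. Across both lists, 40 of 48 receptors were above the minimum. The other 25 coregulators were all above it, with a median of 96.4 per kb and a range from 2.53 for *Lcor* to 687 for the acetyltransferase *Kat2b*. The members were chosen from genes known in liver, so these contrasts were not tested.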

How the data were processed

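RNA of 3 WT and 3 heterozygous mice came from flash-frozen liver per the labels, whereas the study's methods name a portion kept in RNAlater. The mRNA libraries were sequenced as single-end reads. The authors aligned the reads to mm10 with STAR and ran DESeq2 through a BaseSpace application; the submitters' processing notes also name HOMER. Versions, annotation and strand setting are not given in the sources used here. As signal, the authors deposited for each gene its mean normalized count over all 6 libraries, that is, counts divided by size factors and averaged. It is not divided by gene length and carries no error. The table also holds the authors' log2 fold changes, standard errors, Wald statistics, p-values and adjusted p-values for the genotypes, and these were not used. A second deposited table gives counts for single animals in 6 columns headed by numbers that match no sample label, and none of these was used. The planned test between genotypes and the totals per library are therefore not given, and depth is known only through the mean.

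Genes with a mean normalized count above 10 were taken as within range, which matched the authors' own mark for all genes (0 differences). Exon lengths and gene positions were taken from GENCODE M21 (GRCm38, also called mm10), in which 96.4% of the 12971 genes within range and all 38 members matched 1 gene by symbol. Percentiles per kb among the genes within range give the share of 12499 genes with a lower level. Those without a length were taken over all 12971 genes within range. Promoter windows came from RefSeq (GRCm38.p6), and the 250 bases before the start were used. No window was read for *Thra*, *Ppargc1b*, *Ncoa2*, *Nr3c1* and *Ncoa3*. Every member was named. Of the other nuclear receptors and other coregulators, the highest and lowest were named, together with *Nr1d1* and the other genes that share exons with a member. The members and lists were chosen with earlier results of these data known. Alternatives were the length of the longest transcript, no length, other minimum counts and ranking over all genes above 0. The calculations were tested on simulated data. The software was pandas 2.3.3, NumPy 2.4.6 and SciPy 1.17.1 under Python 3.11.15, with figures drawn in Matplotlib 3.10.9. The targeted gene and 1 receptor outside the members are not reported here.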

Additional observations from a re-analysis of the deposited data

How the results depend on the processing

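The median percentile of the members was 59.9 by level per kb of summed exons among the genes within range. It was 58.7 with the length of the longest transcript, 66.9 without a length and 70.4 when all genes above 0 were ranked, since that adds low genes by construction. All 38 members were also above 0, and 35 had a mean normalized count above 100. The percentile moved by more than 10 points for 1 member with the longest transcript (*Esr1*), for 15 without a length and for 21 among all genes above 0. Of 19 pairs of paralogs, 18 kept their order under both other measures of length. The exception was *Ncoa3* over *Ncoa2*, with a log2 ratio of 0.20 per kb of exon, -0.67 with the longest transcript and -0.79 without a length. The other normalization, the fit without a filter on low counts and the fits that leave out a replicate were not run, since they need counts assigned to samples. No paired analysis was possible because the columns of counts carry no replicate numbers or sample names. The spread between mice was not available, so no ratio given here was compared with it.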

Other observations

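Red cell genes did not have like values in the table. *Alas2*, the erythroid enzyme of heme synthesis, had an authors' mean normalized count of 2136, whereas the globin genes *Hba-a1*, *Hbb-bs* and *Hbb-bt* were listed at 0. The cause was not tested, and other genes listed at 0, such as the 5 nuclear receptors named above, were therefore given as listed at 0 rather than as absent.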
